A study of Mus musculus with 6 samples.

Results

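The IGF system of the follicle was followed in mouse granulosa cells (GCs) through 10 genes, the ligand *Igf1*, the receptors *Igf1r* and *Igf2r*, the binding proteins *Igfbp2*, *Igfbp3*, *Igfbp4* and *Igfbp5*, the protease *Pappa* and the adaptors *Irs1* and *Irs2*. They were taken by gene name from the 54532 genes of an RNA-seq table, and all 10 were found. The GCs came from female ICR mice, 3 weeks old, primed with PMSG (5 IU), a gonadotropin preparation that drives follicles to grow. At 22 h after PMSG, the mice received a single injection of phosphate-buffered saline (PBS) or of 120 mg/kg cyclophosphamide (CTX), an alkylating chemotherapy drug, with the GCs taken 6 h after it. There were 3 samples per group, all of them pools of the GCs of 3 mice, so both groups carry the PMSG priming and differ by the injection.

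IGF1 made by GCs acts together with follicle-stimulating hormone to promote GC proliferation, oestrogen synthesis and survival. IGF binding proteins hold the ligand away from its receptor, and PAPP-A, a secreted metalloprotease, cuts IGFBP4 and IGFBP5 so that IGF is released. The type 1 receptor is a tyrosine kinase that phosphorylates the IRS adaptors, which recruit PI3K and switch on AKT. The type 2 receptor carries IGF2 into the cell for degradation and has no kinase.

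After CTX treatment, *Irs2* rose about 4-fold and was the 1 gene of the 10 that passed the test. The ligand *Igf1* and the receptor *Igf1r* differed little between the groups. The binding protein *Igfbp4* was higher in every CTX sample than in any PBS sample but did not pass the test. *Pappa* and *Igfbp5* differed widely among the CTX samples themselves. The test was limma on log2(FPKM + 0.1) over the 14463 genes whose mean reached 0.5 FPKM, with Benjamini-Hochberg adjustment, and a gene was called at an adjusted p-value below 0.05. FPKM is the number of fragments scaled to gene length and to sequencing depth, so levels of different genes can be set side by side.

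Of the 10 genes, 1 was called higher, where 1.40% of all tested genes were, and 0 were called lower, where 0.360% were. The same gene passed the threshold of the study's methods, which also asks for a change over 2-fold and which 0.802% of genes passed upwards and 0.159% downwards. At an unadjusted p-value below 0.05 in limma, 3 of the 10 were higher (10.5% of all genes) and 2 were lower (9.10%). With voom on reads rebuilt from the FPKM values, *Irs2* was again the gene called. The groups did not overlap in 5 of the 10, with CTX higher in 4 (15.0% of all genes) and lower in 1 (14.1%). The median absolute log2 fold change was 0.51 over the 10 genes and 0.18 over all tested genes. The spread among the CTX samples was also wider, with a median SD on the log2 scale of 0.49 and 0.18.

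The samples held 16005869 to 18455011 reads on genes. CTX replicate 2 stood apart on the first principal component, at 74.7 against -26.6 to 13.2 for the other 5 samples. For 9 of the 10 IGF genes it was the CTX sample farthest from the PBS mean on the log2 scale, as it was for 55.3% of all tested genes. The GC marker *Inha* was at 8556 FPKM or more in every sample. Of 9 GC markers, 6 lay lower in all CTX samples, 1 lay higher and 0 were called. *Cyp19a1*, the aromatase gene, was 59.2 to 62.4 FPKM in PBS samples and 47.6, 6.61 and 32.5 FPKM in CTX replicates 1, 2 and 3. *Amh*, the marker that lay higher, was 48.4 to 51.1 FPKM in PBS samples and 54.3, 179 and 85.5 FPKM in CTX samples, and *Amhr2*, its receptor gene, overlapped between the groups with CTX replicate 2 highest. *Cyp17a1*, a theca gene, was 30.8 to 34.4 FPKM in PBS samples and 29.6, 1.25 and 12.4 FPKM in CTX samples. The other theca markers had overlapping groups, among them *Ptch1* at 3.14 to 4.21 FPKM in PBS samples and 4.11, 6.55 and 4.02 FPKM in CTX samples, and *Insl3* at 1.16 FPKM or less. The summed endothelial markers were 4.57 to 5.52 FPKM after PBS and 1.803 to 4.21 FPKM after CTX, and the oocyte markers 32.6 to 68.4 FPKM and 45.3 to 82.7 FPKM. Most of the endothelial sum was *Cdh5*, at 3.66 to 4.49 FPKM in PBS samples and 2.99, 1.25 and 3.11 FPKM in CTX samples. Of the 6 endothelial markers, 4 were under 0.5 FPKM in every sample. *Pecam1*, *Tek* and *Emcn* had higher means after CTX, *Kdr* and *Vwf* lower ones. The summed level of 7 stroma and smooth muscle markers was 25.6 to 26.7 FPKM in PBS samples and 51.4, 28.7 and 45.3 FPKM in CTX samples, and *Acta2* of that list was called higher. The 7 macrophage and leukocyte markers summed to 6.27 to 7.18 FPKM in PBS samples and 7.90 to 15.1 FPKM in CTX samples. Of them, *Cd68* and *Tyrobp* lay higher in all CTX samples, 0 lay lower and 0 were called. *Cd68* was 2.59 to 3.69 FPKM in PBS samples and 4.26, 8.97 and 3.91 FPKM in CTX samples. The others overlapped between the groups, among them the leukocyte gene *Ptprc* at most 0.10 FPKM throughout. The part of these shifts in the IGF values was not tested. In such bulk samples, fewer cells of a type and less RNA per cell cannot be told apart.

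**Figure D1:**
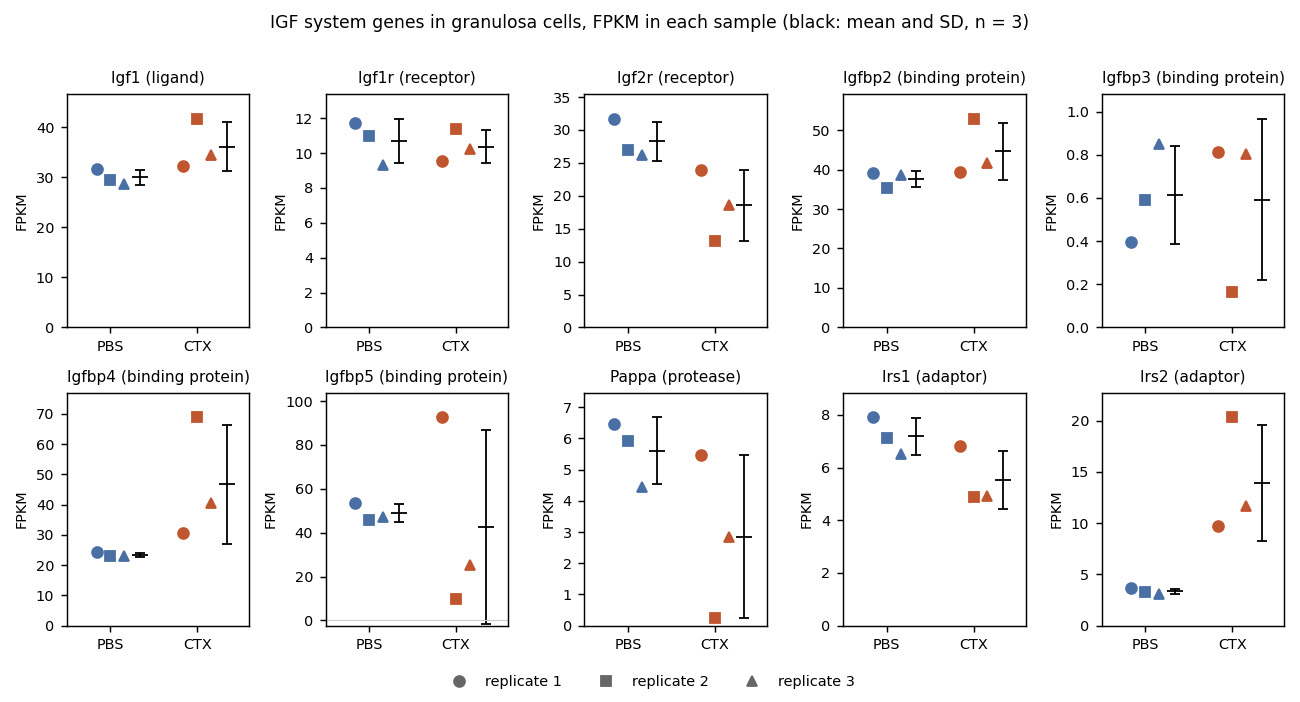
FPKM of the 10 genes in each sample, with PBS on the left and CTX on the right of each panel, symbols for the replicate number and the mean with SD (n = 3) in black. The groups are separate for *Igf1*, *Igfbp2*, *Igfbp4* and *Irs2*, with CTX higher, and for *Igf2r*, with CTX lower. *Igfbp5* and *Pappa* spread most among the CTX samples, with CTX replicate 2 lowest in both.

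In PBS samples, *Igfbp5* was the most abundant of the 10 genes at 48.9 ± 4.23 FPKM (mean ± SD, n = 3). It was followed by *Igfbp2*, *Igf1*, *Igf2r*, *Igfbp4*, *Igf1r*, *Irs1*, *Pappa*, *Irs2* and *Igfbp3*, the last at 0.612 ± 0.227 FPKM. Among neighbours in this order, the samples of *Igf1* and *Igf2r* overlapped and those of the other pairs did not, although *Irs1* (lowest 6.51) and *Pappa* (highest 6.47) nearly met. In CTX samples the order began with *Igfbp4*, *Igfbp2* and *Igfbp5*, whose samples all overlapped. *Irs2* moved from the ninth place to the sixth, between *Igf2r* and *Igf1r*, and overlapped both *Igf2r* above it and *Igf1r* below it.

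The adaptor *Irs2* (chromosome 8, 10984681 to 11008458, minus strand, GRCm38) links the activated IGF1 and insulin receptors to PI3K, and its transcription is known to respond to cAMP and to FOXO factors. Its level was 3.63, 3.25 and 3.13 FPKM in PBS replicates 1, 2 and 3 and 9.70, 20.3 and 11.7 FPKM in CTX replicates 1, 2 and 3. The groups were far apart, with the lowest CTX sample at 2.90 times the PBS mean and CTX replicate 2 at 6.08 times. On the log2 scale *Irs2* rose by 1.96 ± 0.26 (SE, 95% interval 1.32 to 2.59, limma, Benjamini-Hochberg adjusted p = 0.022). Behind these values were 321 to 409 reads per PBS sample and 1111 to 2278 per CTX sample. The fold change without CTX replicate 2 was 1.65 on the log2 scale (adjusted p = 1.9e-03, limma). The call was lost in 4 of the 6 limma fits that left out 1 sample, without PBS replicate 1, 2 or 3 (adjusted p = 0.105, 0.128 and 0.126) and without CTX replicate 3 (adjusted p = 0.089).

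*Irs1* (chromosome 1, 82233101 to 82291416, minus strand), the other main adaptor, was not called. It was at 7.90, 7.13 and 6.51 FPKM in PBS samples and 6.81, 4.87 and 4.93 FPKM in CTX samples, and the groups overlapped through CTX replicate 1. Its log2 fold change was -0.38 ± 0.15 (SE, adjusted p = 0.246, limma). *Irs1* was the more abundant adaptor in all 3 PBS samples and *Irs2* in all 3 CTX samples. *Irs2* made up 31.5%, 31.3% and 32.5% of the summed FPKM of both genes after PBS and 58.7%, 80.7% and 70.4% after CTX. The sum itself was 9.64 to 11.5 FPKM in PBS samples and 16.5, 25.2 and 16.6 FPKM in CTX samples, so it was higher in each CTX sample.

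The bases before the start sites of *Irs1* and *Irs2* are shown because both genes serve the same step and their values went apart. RefSeq promoters on GRCm38.p6 were given for 9 of the 10 genes, all but *Pappa*, and 250 bases before each start site were searched on both strands. The E-box letters CACGTG, a site for basic helix-loop-helix factors such as TFE3 and USF, were present in *Irs2*, *Irs1*, *Igf2r* and *Igfbp2*, and in 6.02% of all 32851 promoters. Each window below runs 5′ to 3′ on the strand of its gene, with the E-box in capitals.
*Irs2*, chr8:11008953-11008988, minus strand: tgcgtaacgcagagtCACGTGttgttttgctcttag
*Irs1*, chr1:82291534-82291569, minus strand: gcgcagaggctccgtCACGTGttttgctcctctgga
*Igf2r*, chr17:12769734-12769769, minus strand: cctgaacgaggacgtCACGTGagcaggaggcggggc
*Igfbp2*, chr1:72824323-72824358, plus strand: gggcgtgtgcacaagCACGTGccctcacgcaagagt

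The longest runs shared by the *Irs1* and *Irs2* promoters were 2 of 10 bases, GTCACGTGTT, which holds the E-box, and TGTTTTGCTC. These runs overlap in both promoters. The E-box starts 115 bases before the start site in *Irs1* and 44 bases before it in *Irs2*. *Igf2r* held a second E-box 7 bases before its start site. TGTTTTG, the letters of an insulin response element, occurred in *Irs2* once and in *Irs1* at 2 places, 1 of them overlapping the E-box, and in 5.56% of all promoters. The cAMP response element TGACGTCA (1.55% of all promoters) and the FOXO letters GTAAACA (3.17%) were in none of the member promoters in this window. The shorter TGACG (17.8% of all promoters) was found in *Irs1*, where it overlapped the E-box, and at 2 places in *Igf2r*, 1 of which overlapped an E-box. GTAAACA was the only form searched as a FOXO site. Binding of FOXO factors to other letters, TGTTTTG among them, was not tested. The E-box letters stood before *Irs2*, which was called, and before *Igf2r*, *Irs1* and *Igfbp2*, which were not. Any part of the E-box in these levels was not tested.

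The ligand *Igf1* (chromosome 10, 87858265 to 87937042, plus strand) was at 31.7, 29.5 and 28.7 FPKM in PBS samples and 32.3, 41.6 and 34.4 FPKM in CTX samples. All CTX values lay above all PBS values, but CTX replicate 1 did so by less than 1 FPKM. This was a log2 fold change of 0.26 ± 0.11 (SE, 95% interval 0.00 to 0.52, adjusted p = 0.250, limma), and without CTX replicate 2 it was 0.15. The other IGF ligand, *Igf2*, had 0 reads in 4 samples and 2 and 4 reads in CTX replicates 2 and 3. A count of 3 reads on *Igf2* corresponds to at most 0.0324 FPKM. *Ins1* and *Ins2*, the insulin genes, had 0 reads in every sample, which allows up to 0.182 and 0.141 FPKM.

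*Igf1r* (chromosome 7, 67952827 to 68233668, plus strand), which transmits the IGF1 signal, was at 11.7, 11.0 and 9.29 FPKM in PBS samples and 9.53, 11.4 and 10.2 FPKM in CTX samples. The groups overlapped fully, and the log2 fold change was -0.04 with a 95% interval of -0.31 to 0.24 (adjusted p = 0.867, limma). The related insulin receptor *Insr* had a log2 fold change of -0.21 and overlapping groups.

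*Igf2r* (chromosome 17, 12682406 to 12769664, minus strand), the clearance receptor, was at 31.6, 27.0 and 26.1 FPKM in PBS samples and 24.0, 13.1 and 18.6 FPKM in CTX samples. Every CTX value was below every PBS value, with CTX replicate 2 lowest. The log2 fold change was -0.64 ± 0.22 (SE, 95% interval -1.16 to -0.12, adjusted p = 0.194, limma), and without CTX replicate 2 it was -0.41. The antisense gene *Airn* overlaps *Igf2r* and was at 0.767 to 1.41 FPKM. The library kit named in the labels is not stated to keep strand, so reads of *Airn* and *Igf2r* in the shared stretch cannot be told apart.

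Among the binding proteins, *Igfbp4* (chromosome 11, 99041244 to 99054392, plus strand), which inhibits IGF action in the follicle and is the main substrate of PAPP-A, differed most regularly. Its level was 24.3, 23.2 and 23.0 FPKM in PBS samples and 30.7, 68.8 and 40.6 FPKM in CTX samples. The PBS samples lay close together and below every CTX sample, whereas CTX replicate 2 was more than 2 times CTX replicate 1. For *Igfbp4* the log2 fold change was 0.91 ± 0.28 (SE, 95% interval 0.24 to 1.57, adjusted p = 0.171, limma), and without CTX replicate 2 it was 0.59 (adjusted p = 0.065, limma). The last 150 bases before the RefSeq start site of *Igfbp4* are shown because it was, with *Irs2*, 1 of the genes whose groups stood clearly apart. It holds a TATA box, TATAAA, 28 bases before the start site, which 12.4% of all promoters hold somewhere in 250 bases on either strand and which the *Irs2* window lacks. In the *Irs2* sequence, the capitals mark the E-box and TGTTTTG.
*Igfbp4*, chr11:99041094-99041243, plus strand: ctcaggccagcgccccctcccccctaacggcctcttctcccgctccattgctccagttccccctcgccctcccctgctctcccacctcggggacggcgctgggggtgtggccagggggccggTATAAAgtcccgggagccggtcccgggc
*Irs2*, chr8:11008930-11009079, minus strand: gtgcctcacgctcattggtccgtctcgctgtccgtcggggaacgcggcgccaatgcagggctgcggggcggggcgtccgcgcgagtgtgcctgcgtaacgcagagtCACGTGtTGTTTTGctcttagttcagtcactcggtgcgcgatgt

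*Igfbp5* (chromosome 1, 72857932 to 72874884, minus strand), a binding protein that is also linked to extracellular matrix, was at 53.7, 46.0 and 47.0 FPKM in PBS samples and 92.8, 9.70 and 25.3 FPKM in CTX samples. CTX replicate 1 lay at 1.90 times the PBS mean, while CTX replicates 2 and 3 lay 5.04-fold and 1.93-fold below it. The coefficient of variation was 104% among CTX samples and 8.64% among PBS samples. The mean difference on the log2 scale was -0.78 ± 0.75 (SE, adjusted p = 0.575, limma). It was -0.01 without CTX replicate 2 and -1.63 (adjusted p = 0.081, limma) without CTX replicate 1. Of the stroma and smooth muscle markers, the collagen gene *Col1a1* was at 8.18 to 9.58 FPKM in PBS samples and 16.9, 2.65 and 12.3 FPKM in CTX samples. *Pdgfra*, *Col1a2* and *Dcn* were likewise highest in CTX replicate 1 and lowest in CTX replicate 2, whereas *Acta2* was highest in CTX replicate 2 (20.5 FPKM) and *Lum* and *Myh11* in CTX replicate 3. The part of these markers in the *Igfbp5* values was not tested.

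*Igfbp2* (chromosome 1, 72824503 to 72852474, plus strand), the second most abundant of the 10 genes after PBS, was at 39.2, 35.4 and 38.5 FPKM in PBS samples and 39.3, 52.7 and 41.7 FPKM in CTX samples. The groups did not overlap, though CTX replicate 1 lay barely above PBS replicate 1, and the log2 fold change was 0.23 ± 0.12 (SE, adjusted p = 0.330, limma), or 0.11 without CTX replicate 2. *Igfbp3* (chromosome 11, 7206086 to 7213923, minus strand), the main carrier of IGF in blood, was near the lower end of what was tested. It had 22, 34 and 43 reads in PBS samples and 46, 9 and 45 reads in CTX samples. CTX replicate 2 was the lowest, at 0.162 FPKM (exact Poisson 95% interval 0.0741 to 0.308, counting error only), and the other CTX samples lay within the range of the PBS samples. The log2 fold change was -0.20 with a 95% interval of -1.59 to 1.2 (adjusted p = 0.866, limma), so a change of 2-fold either way could not be told from none.

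*Pappa* (chromosome 4, 65124174 to 65357509, plus strand), the protease, was at 6.47, 5.93 and 4.43 FPKM in PBS samples and 5.46, 0.250 and 2.85 FPKM in CTX samples. CTX replicate 1 lay within the PBS range, CTX replicate 3 was 1.97-fold below the PBS mean and CTX replicate 2 was 22.4-fold below it, with 49 reads against 791 or more in each PBS sample. The log2 fold change of *Pappa* was -1.65 ± 0.97 (SE, 95% interval -3.99 to 0.68, adjusted p = 0.377, limma), and without CTX replicate 2 it was -0.48. The value thus rested largely on 1 sample. The FPKM ratio of *Igfbp4* to *Pappa*, substrate over protease, was 3.75, 3.90 and 5.19 in PBS samples and 5.61, 275 and 14.2 in CTX samples. It was higher in each CTX sample, with CTX replicate 1 close to the PBS samples.

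**Figure D2:**
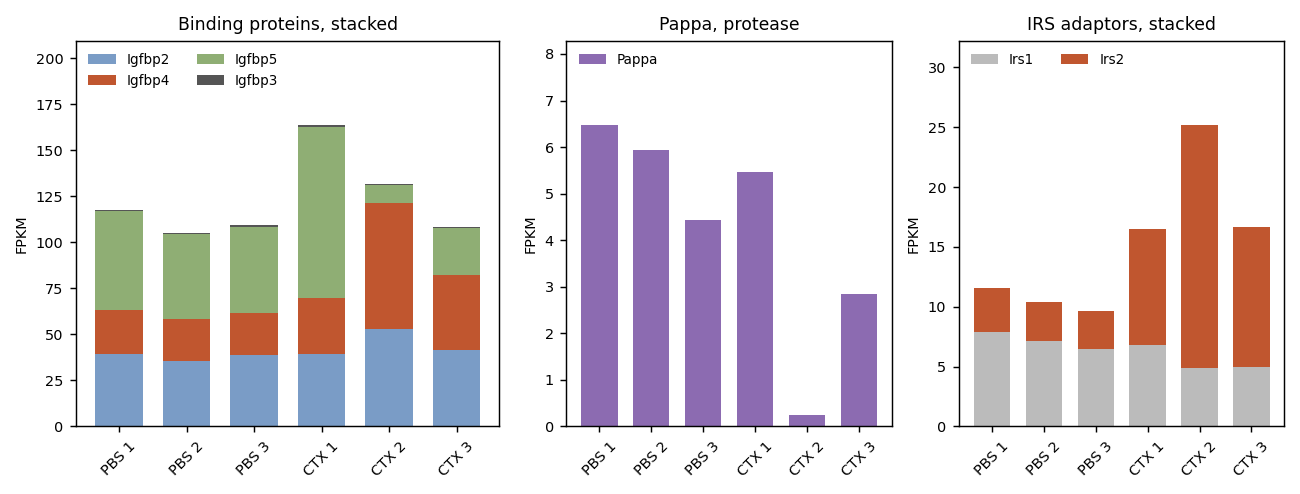
FPKM per sample of the 4 binding proteins (stacked, left), of *Pappa* (middle) and of the IRS adaptors (stacked, right), with bars starting at 0. The total of the binding proteins overlaps between the groups while its makeup differs among the CTX samples, and *Irs2* takes the larger part of the adaptor bars in CTX samples.

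The summed level of the 4 binding proteins was 105 to 118 FPKM in PBS samples and 164, 131 and 108 FPKM in CTX samples. *Igfbp5* made up 43.0% to 45.7% of that sum after PBS and 56.7%, 7.39% and 23.3% in CTX replicates 1, 2 and 3. *Igfbp4* made up 20.6% to 22.03% after PBS and 18.7%, 52.4% and 37.4% after CTX. The 3 PBS samples were thus alike in makeup, and the 3 CTX samples differed from each other, with *Igfbp4* the leading binding protein in CTX replicate 2, *Igfbp5* in CTX replicate 1 and *Igfbp2* in CTX replicate 3.

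For each of the 5 genes whose groups did not overlap (*Igf1*, *Igf2r*, *Igfbp2*, *Igfbp4* and *Irs2*), the two-sided exact permutation test of the mean FPKM gave p = 0.10, the smallest that 3 samples against 3 allow. For *Irs1* and *Pappa* the exact permutation p was 0.20, for *Igf1r* and *Igfbp3* 0.80, and for *Igfbp5* 1.0. The samples are labelled as separate samples and hold different mice.

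**Figure D3:**
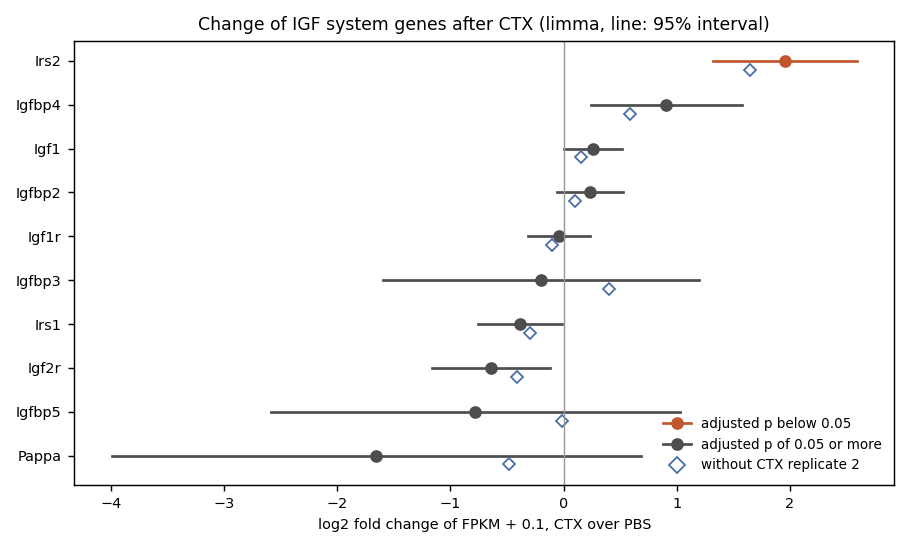
log2 fold change of each gene, CTX over PBS, on the FPKM + 0.1 scale (x axis), with its unadjusted 95% limma interval as a line and the value without CTX replicate 2 as an open diamond. *Irs2* (1.96) is the gene past the threshold, and the intervals of *Pappa* and *Igfbp5* are the widest.

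Other genes of the pathway were taken from a list of 72 genes named for their place in it, of which 58 were tested. In limma, 0 of the 58 were called in either direction, and 6 were higher and 4 lower at an unadjusted p-value below 0.05, where 10.5% and 9.10% of all tested genes were. The groups did not overlap in 8 genes with CTX higher and in 8 with CTX lower, where 15.0% and 14.1% of all tested genes did so. The median log2 fold change was -0.0019 over the list and -0.01 over all tested genes. By group, the log2 fold changes ran from -0.28 to 0.50 in the PI3K and AKT branch (26 genes tested), from -0.21 to 0.18 in the RAS and ERK branch (10 tested) and from -0.32 to 0.62 among the other receptor adaptors (12 tested). The AKT genes of the branch, *Akt1* and *Akt2*, and the PI3K subunit gene *Pik3ca* had overlapping groups.

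Among these genes, *Igfbp1*, a binding protein known as a FOXO target, had the largest upward difference among those with separate groups. It was at 0.59, 0.54 and 0.69 FPKM in PBS samples and 0.72, 1.66 and 1.39 FPKM in CTX samples, a log2 fold change of 0.88 ± 0.33 (SE, adjusted p = 0.223, limma), on 15 to 45 reads per sample. *Grb14*, an adaptor that inhibits the insulin receptor, was at 36.6 to 39.4 FPKM in PBS samples and 43.7, 90.8 and 51.7 FPKM in CTX samples (log2 fold change 0.62, adjusted p = 0.256, limma). On the lower side stood *Adamts1*, a metalloprotease of the ovulating follicle, at 64.6 to 77.2 FPKM in PBS samples and 62.5, 19.8 and 51.4 FPKM in CTX samples (log2 fold change -0.82, adjusted p = 0.318, limma). *Sos2*, an exchange factor for RAS, had a log2 fold change of -0.32 (adjusted p = 0.174, limma). *Igfbp7*, which binds IGF weakly, was at 23.3 to 27.9 FPKM in PBS samples and 49.7, 8.62 and 40.2 FPKM in CTX samples, ranked as *Col1a1* was in these samples. With all samples, the log2 fold change of *Igfbp7* was 0.05 (adjusted p = 0.973, limma). It was called higher when CTX replicate 2 was left out (log2 fold change 0.84, adjusted p = 0.024, limma), and it is named here after its values were seen.

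**Figure D4:**
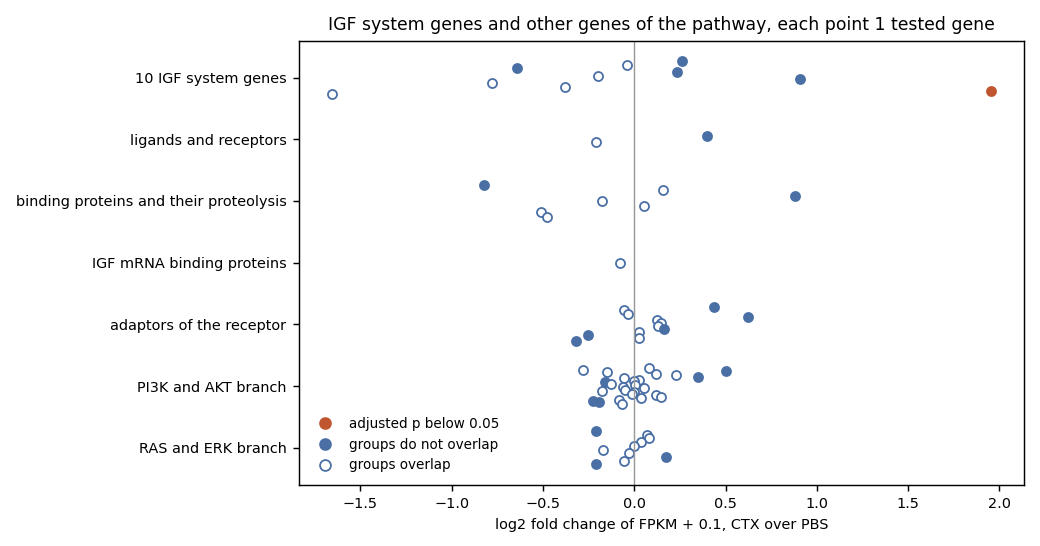
log2 fold change, CTX over PBS on the FPKM + 0.1 scale, of the 10 IGF system genes (top row) and of the 58 other tested genes of the pathway, each point 1 gene, filled where the groups do not overlap. *Irs2* (orange) is the gene called, and most genes of the PI3K and ERK branches lie near 0.

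The genes whose log2 values ran most like those of a member over the 6 samples were looked up for the ligand, the protease and the adaptor that was called, as a description over samples that share their groups. For *Irs2* they were *Irf2bpl*, *Zfp608* and *Klf10*, with Pearson's r of 0.999, 0.998 and 0.998. *Klf10*, a transcription factor gene induced early by TGF-beta, was at 2.23 to 2.46 FPKM in PBS samples and 9.06, 19.9 and 12.0 FPKM in CTX samples. For *Pappa* they were *Myrf*, *Ehbp1l1* and *Tmco3* (r = 0.999, 0.999 and 0.998), each lowest in CTX replicate 2. For *Igf1* they were *Dtd1*, *Ptpn21* and *Hipk3* (r = 0.998, 0.996 and 0.995), each highest in CTX replicate 2.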

How the data were processed

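The authors deposited FPKM values of 54532 genes in 6 samples, 3 PBS and 3 CTX, grouped by the treatment label. Per the labels, the submitters' processing notes list CASAVA 1.8, fastp, HISAT2 2.0.5, featureCounts 1.5.0-p3, DESeq2 1.20.0 and mm10, with no parameters. Multiplied by the deposited gene length (another deposited column, in bases), 100% of FPKM values above 0 came within 0.001 of a whole read, which gave 16005869 to 18455011 reads per sample. The group means, fold changes and p-values of the authors' own comparison, also in the table, were not used.

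log2(FPKM + 0.1) was compared with limma 3.58.1 (lmFit, eBayes with trend, R 4.3.3) over the genes whose mean reached 0.5 FPKM, with Benjamini-Hochberg adjustment over all of them. A pseudocount understates the change of low genes. The fit was tested on simulated data with known changes, in which both groups had the spread of the PBS samples. In the data, the median SD on the log2 scale over all tested genes was 0.18 among CTX samples and 0.10 among PBS samples. The simulation therefore does not show how the fit behaves at unequal spread. Python 3.11.15, SciPy 1.17.1 and matplotlib 3.10.9 served for the rest. Coordinates are those of the table, and all 10 genes have the same start and end in GENCODE M21.

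All 10 members were named. Of the pathway list, genes past the threshold were to be named and, as fewer than 6 passed, the 2 largest rises and falls with separate groups. The members, lists, motifs and alternatives were chosen with earlier results of these data known. Same-numbered samples hold different mice, and their deviations from the group means correlated at 0.056, 0.024 and 0.006, so they were not treated as pairs. Alternatives tried were other pseudocounts (1 and 0.01), other filters (none and a mean of 5 FPKM), 3 other scalings (median-of-ratios, 75th percentile, quantile), arrayWeights, eBayes without trend, voom on rebuilt reads, a replicate block and each sample left out. The Poisson interval and the floors (3 reads) cover counting error only, whereas the limma intervals rest on the spread among samples.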

Additional observations from a re-analysis of the deposited data

How the results depend on the processing

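The count of IGF genes called higher, 1 (*Irs2*), was also 1 under 9 of the 11 alternatives that kept all samples, and the log2 fold change of *Irs2* ran from 1.72 to 1.98 over all 11. It was 0 with the replicate block (*Irs2* adjusted p = 0.105, limma, where 53 genes in all were called) and 4 with arrayWeights, in which 4 were also called lower. arrayWeights gave CTX replicate 3 a weight of 16.6 and CTX replicate 2 one of 0.163, and called 39.8% of all genes. It also called 11 pathway genes higher and 14 lower, where the reported fit called 0 of either. Same-numbered samples hold different mice. Whether they also share a day of collection is not stated, so the need for the block was not tested. With each sample left out in turn, the count of IGF genes called higher, and of those also over 2-fold, ran from 0 to 1, and the pathway genes called higher from 0 to 1 (*Igfbp7* without CTX replicate 2). The 0 came where 70 to 104 genes in all were called. The block also left 0 over 2-fold. The cause of these differences was not tested.

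Directions that turned were of genes that were not called. *Igf1r* ran from -0.13 to 0.033 on the log2 scale with each sample left out. *Igfbp3* ran from -0.50 to 0.40 likewise, and was 0.12 with quantile normalization and 0.43 with arrayWeights. The other 8 genes kept their direction under each alternative run. At a mean FPKM of at least 5, *Igfbp3* and *Pappa* gave no value. The depth limits *Igfbp3* most, with 9 to 46 reads per sample.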

Other observations

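*Igfbp2* and *Igfbp5* lie tail to tail on chromosome 1, 5457 bases apart on opposite strands, and went opposite ways in CTX replicate 2, at 1.40 times the PBS mean for *Igfbp2* and 5.04-fold below it for *Igfbp5*. *Igfbp3* and *Igfbp1* lie in the same arrangement on chromosome 11, 3539 bases apart. In CTX replicate 2, *Igfbp1* had its highest value (1.66 FPKM) and *Igfbp3* its lowest (0.162 FPKM).

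The gene models differ in how much of the counted length is coding, which was 6.21% of 9904 bases for *Igf1*, 13.5% of 6006 bases for *Igfbp5*, 62.7% of 6323 bases for *Irs2* and 80.0% of 9308 bases for *Igf2r*. Most of the counted length of *Igf1* and *Igfbp5* thus lies outside the coding sequence. *Htra1*, a secreted serine protease that can cut IGF binding proteins, was the most abundant gene of the pathway list, at 521 to 574 FPKM in PBS samples and 498, 724 and 615 FPKM in CTX samples, with overlapping groups.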
